A study of Mus musculus with 4 samples.

Results

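The genes described here encode the collagens, laminins and other structural proteins of the extracellular matrix, in meningeal lymphatic endothelial cells that were sorted from aged mice. They were taken by name from the deposited expression table, and 58 of its 9114 rows matched. The rule covered the collagen chains, the laminin chains, nidogens, perlecan, agrin, fibrillins, fibulins, emilins, microfibril-associated proteins, thrombospondins, tenascins, periostin, the SPARC family, the small leucine-rich proteoglycans Dcn, Bgn and Ogn, matrilins and Mgp. Of the 58 rows, 54 encode proteins known as part of the matrix. The remaining 4 are set apart: Col4a3bp encodes a ceramide transfer protein, Mfap1b encodes a component of the spliceosome, and the place of Mfap3 and Mfap3l in the matrix is less certain. The same rule matched 103 symbols of the annotation. The other 45, among them Fn1, Col5a1, Lama2, Vcan, Eln and Lum, had no row in the deposited table and are not analysed here. Why they had no row was not tested.

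The extracellular matrix has a sheet-like part and a fibrous part. Basement membranes lie directly under endothelium and are built from a laminin network and a collagen IV network, which nidogens and perlecan join. The interstitial matrix around vessels holds fibrillar collagens, elastic fibres and proteoglycans, and much of it is made by fibroblasts. Initial lymphatic vessels are known for a thin, discontinuous basement membrane and for anchoring filaments of elastic fibre proteins that tie the endothelial cells to the surrounding tissue.

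All mice were male C57BL/6J animals aged 20 to 24 months that carried an adeno-associated virus of serotype AAV1, injected into the cisterna magna in a volume of 5 µL 4 weeks before sorting. The virus AAV1-CMV-mVEGF-C carried mouse VEGF-C, the main growth factor of lymphatic vessels, and the control virus AAV1-CMV-eGFP carried a fluorescent protein. In both, the insert was driven by CMV, a promoter active in many cell types, which does not restrict expression to lymphatic cells. Which cells expressed the insert was not tested here. Sorting kept live singlets with CD31, a pan-endothelial marker, and podoplanin, a lymphatic marker, on their surface and without the leukocyte marker CD45. Each library was made from the pooled meninges of 10 mice, with 2 libraries per group.

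The question was whether delivery of VEGF-C changed the expression of these matrix genes. Between 25610683 and 28632461 reads per library fell on the genes of the table. All 12 lymphatic endothelial markers on the list used had a row (Prox1, Lyve1, Flt4, Pdpn, Reln, Mmrn1, Ccl21a, Sox18, Nrp2, Tbx1, Cldn11, Fxyd6), with a summed normalised count of 480160 and 550902 in the controls and 615661 and 503908 under mVEGF-C. Rows were also present for 10 of 24 markers of meningeal fibroblasts and arachnoid cells, 5 of 12 mural markers and 3 of 12 macrophage markers, none of them at 0 in any library. Of the 9063 genes tested, few were at 0: 3 and 3 in the controls and 39 and 24 under mVEGF-C. The table held only genes whose replicates agreed, as given below, so a marker without a row was not necessarily unexpressed. In bulk libraries such as these, fewer cells of a type and less RNA per cell cannot be told apart. The table had been limited to genes whose replicates agreed within a set spread, which makes the p-values below too small by an unknown amount.

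None of the structural matrix genes with a row in the table was called different between the groups by limma. Of 58 members tested, 0 were called in either direction (limma on log2(normalised count + 1), Benjamini-Hochberg adjusted p under 0.05 over all 9063 genes tested), against 2.14% of all genes tested, 0.828% called higher and 1.31% called lower. The lowest adjusted p among the members was 0.121. At an unadjusted p under 0.05 there were 7 members, 4 above and 3 below eGFP, which is 12.1% of the members and close to the 11.8% of all genes tested (5.09% above and 6.7% below). edgeR on the recovered reads called 0 members, against 1.61% of all genes, and DESeq2 called 1, Fbln5, against 6.63%. The log2 fold changes (mVEGF-C minus eGFP) ran from -3.26 to 2.82 with a median of 0.13, 33 of 58 above 0, against a median of -0.02 and 49.5% above 0 over all genes tested. Libraries of the groups did not overlap for 22 members, 37.9%, 14 above and 8 below eGFP, and for 39.2% of all genes tested, 19.4% above and 19.8% below.

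**Figure D1:**
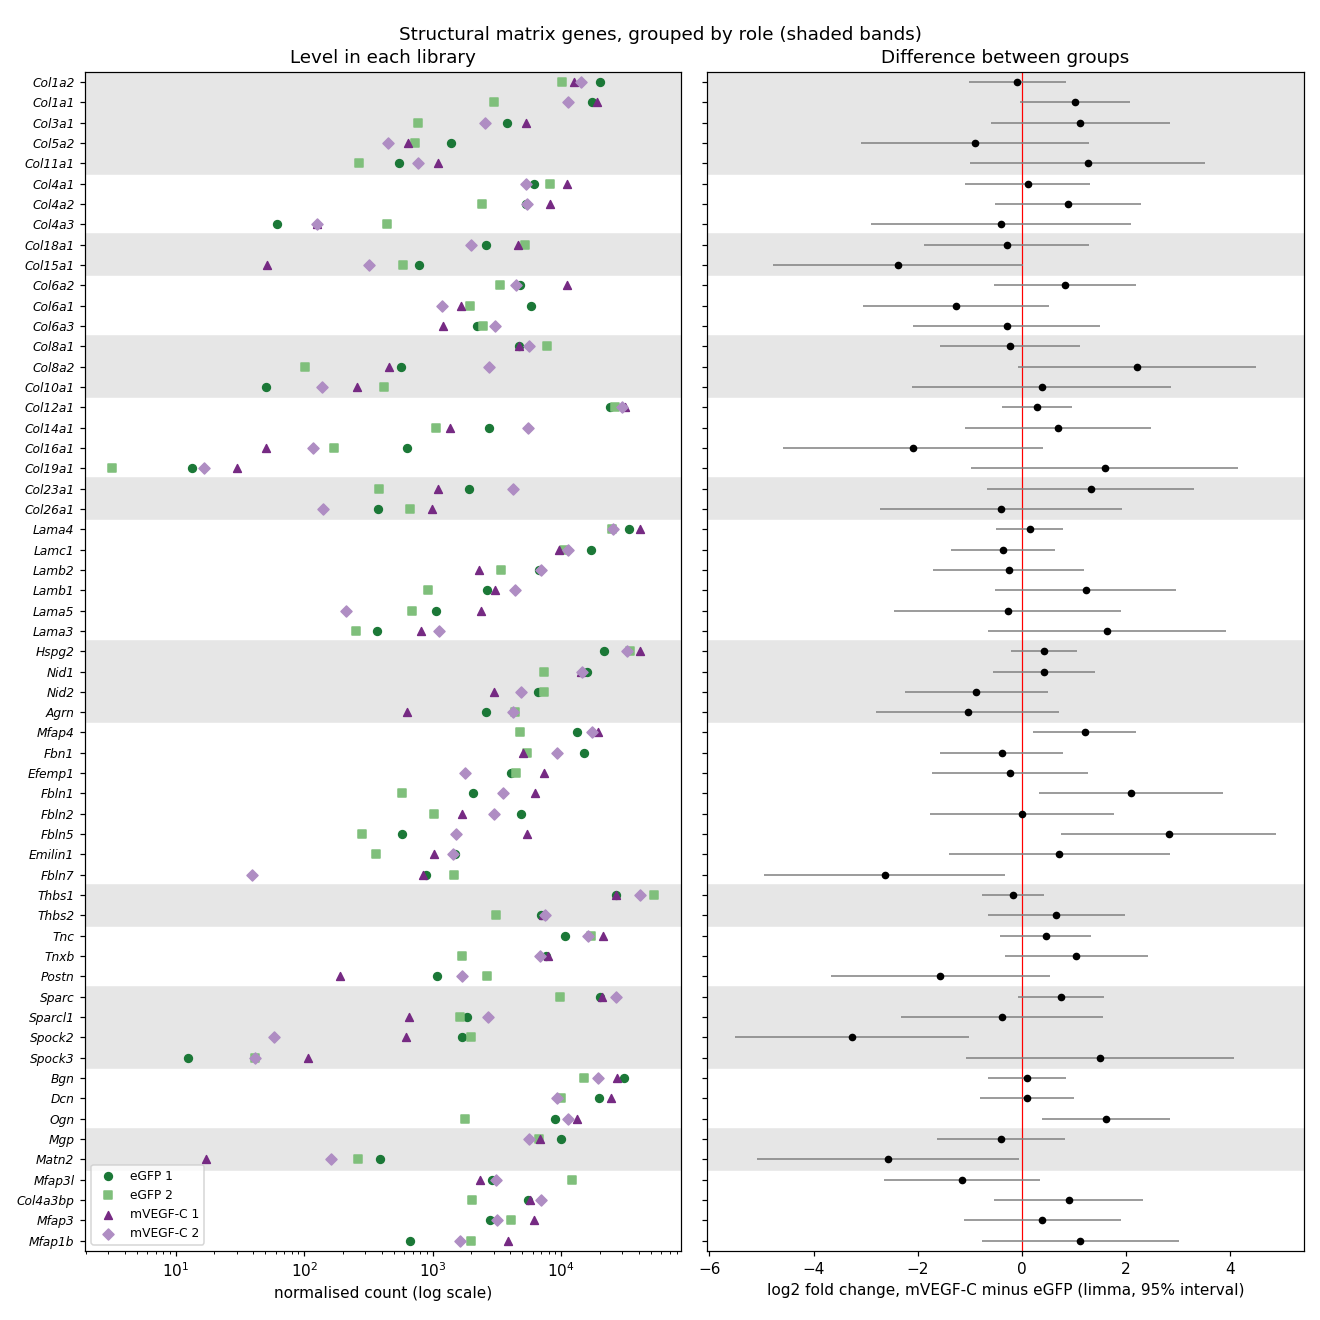
Left, normalised count (log axis) of each of the 58 genes in each of the 4 libraries, grouped by role in shaded bands; right, the log2 fold change of mVEGF-C over eGFP with its 95% interval from limma (n = 2 libraries per group). Levels span from Col19a1 at 3.21 to Thbs1 at 52841, and the intervals of all but 7 members include 0.

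Levels can be set against each other only per length of transcript, so the normalised count was divided by the kilobases of annotated exon. By this measure the most abundant members, as mean ± SD over the 4 libraries, were Mfap4, a microfibril-associated glycoprotein, at 7121 ± 3356 per kilobase, and Mgp, an inhibitor of matrix calcification, at 6131 ± 1569. Thbs1, a matricellular protein that binds many growth factors and matrix proteins, had 6069 ± 2077, Sparc, a collagen-binding matricellular protein, 5093 ± 1848, and Bgn (biglycan) 3797 ± 1212 per kilobase. Neighbours in this order differed by less than the SD of either, except that Sparc and Bgn differed by more than the SD of Bgn. With the length of the longest transcript in place of all annotated exons, Mgp ranked first of the 58 and Mfap4 ranked 4, so the order at the top depends on the length taken. The least abundant were Spock3, a testican proteoglycan, at 8.43 ± 6.68 and the collagen gene Col19a1 at 2.30 ± 1.60 per kilobase.

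Together the 58 rows took 1.68% and 1.22% of the control reads against 1.60% and 1.53% of those under mVEGF-C, 1.45% ± 0.325 against 1.56% ± 0.0518 (mean ± SD, n = 2 each). The difference between the group means was smaller than the spread between the eGFP libraries. The lower of the eGFP values came from the library eGFP 2. In that library 25 of the 58 members had their lowest level of the 4 libraries, 43.1%, against 27.4% of all genes tested. Of the members, 37 (63.8%) lay below eGFP 1 in eGFP 2, against 50.7% of all genes tested. Between the replicates the median absolute difference of the members was 1.02 on the log2 scale in the eGFP pair and 0.81 in the mVEGF-C pair, against 0.94 and 1.07 over all genes tested.

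**Figure D2:**
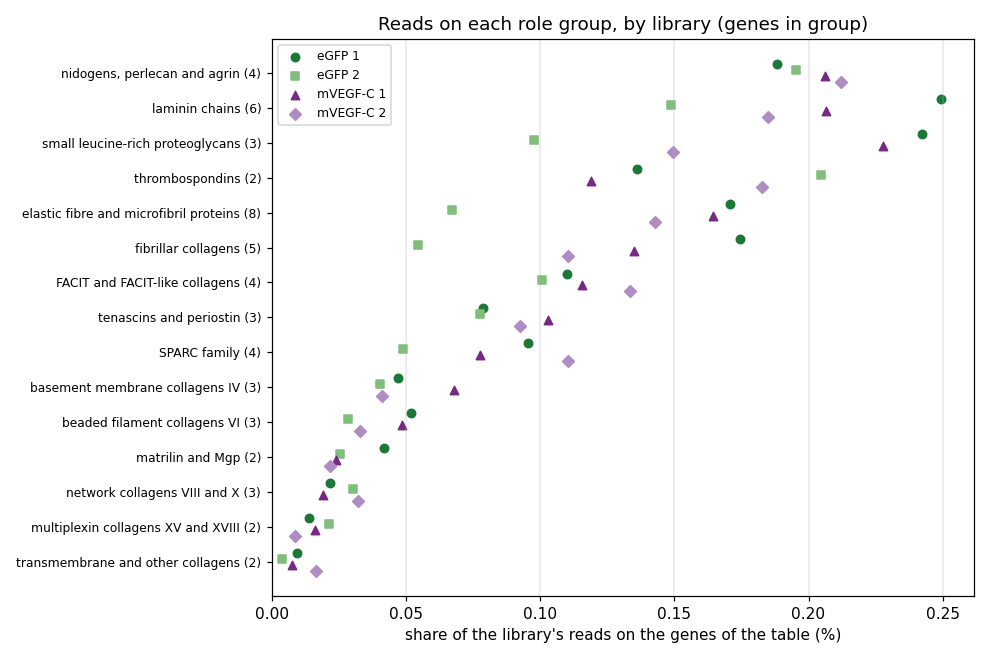
Share of each library's reads (horizontal axis, %) on each role group of matrix genes, with the number of genes in brackets and 1 point per library. The library eGFP 2 lies apart on the low side for the fibrillar collagens (0.0545%) and the elastic fibre and microfibril proteins (0.0672%). It is also the lowest for the small leucine-rich proteoglycans (0.0976%), where mVEGF-C 2 comes next (0.149%).

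The role groups differed in how many members were lower in eGFP 2. All 5 fibrillar collagens, all 6 laminin chains and all 3 small leucine-rich proteoglycans were lower in eGFP 2 than in eGFP 1, as were 6 of 8 elastic fibre and microfibril genes. In contrast, 3 of the 4 genes for nidogens, perlecan and agrin and 2 of 3 collagen IV genes were higher in eGFP 2. The 15 basement membrane genes had a median difference of -0.44 on the log2 scale (eGFP 2 minus eGFP 1), and the 39 interstitial matrix genes one of -1.01. The 10 fibroblast and arachnoid markers had a summed normalised count of 44905.5 in eGFP 1, 37696 in eGFP 2, 48986 in mVEGF-C 1 and 42706 in mVEGF-C 2. Among them Serping1 had 10682 in eGFP 1 and 2086 in eGFP 2, against 10175 and 10664 in the mVEGF-C libraries. Islr had 5155 and 17212, against 1960 and 1712. Of the 10, 4 did not overlap between the groups: Cygb, Tbx18 and Cdh11 above the controls and Islr below. That is 40%, against 39.2% of all genes tested, 19.4% above and 19.8% below. The fold change was above 0 for 7 and below 0 for 3, with a median of 0.62. Of these markers limma called 0, edgeR 1 and DESeq2 2, against 2.14%, 1.61% and 6.63% of all genes tested. The 5 mural markers had a summed normalised count of 28796 and 22693 in the controls and 18064 and 13248 under mVEGF-C, and the 3 macrophage markers 29427 and 35838 against 29114 and 24624, so that both sums were lower in both mVEGF-C libraries than in either control. Single markers did not all follow the sums. Of the 5 mural markers, 2 did not overlap between the groups, Abcc9 and Notch3, both below the controls. This is 40%, against 39.2% of all genes tested in either direction and 19.8% below. Rgs5 and Kcnj8 overlapped, and Pdgfrb had 2908 and 680 in the controls against 3532 and 2064 (fold change 0.94). Most of the macrophage sum was Mrc1, whose groups overlapped at 27577 and 32880 against 28512 and 23299. Fcer1g lay below both controls, and Cx3cr1 had a fold change of 0.44. The part of these cells in the matrix values was not tested.

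**Figure D3:**
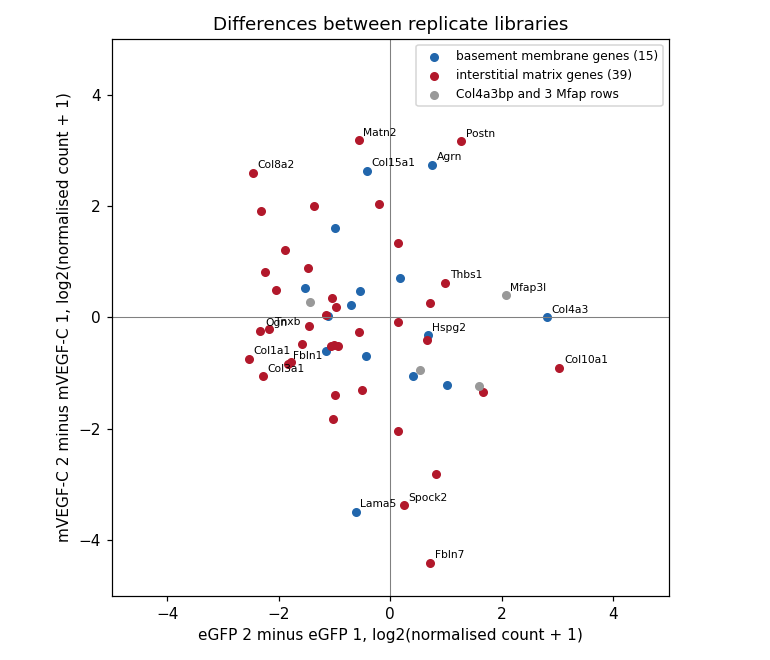
Difference between the 2 libraries of a group on the log2(normalised count + 1) scale, eGFP on the horizontal and mVEGF-C on the vertical axis, 1 point per gene. Most interstitial matrix genes lie left of 0 (27 of 39 lower in eGFP 2), with Col1a1, Col3a1, Ogn and Tnxb among those below -2, while Fbln7, Spock2 and Lama5 differ most within the mVEGF-C pair.

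Of 8 elastic fibre and microfibril genes, 3 were above both controls in each mVEGF-C library and 1 was below, against 19.4% and 19.8% of all genes tested. Fbln5 (chromosome 12, 101746565 to 101819055) encodes fibulin-5, which is needed to assemble elastic fibres. It had normalised counts of 581 and 284 in the controls and 5411 and 1521 under mVEGF-C. The lower of the mVEGF-C libraries was thus above both controls, but the mVEGF-C pair itself was far apart. Its mean was 3466 ± 2751 in mVEGF-C and 433 ± 210 in eGFP (SD, n = 2 each), a ratio of 8.01 with a log2 fold change of 2.82 ± 1.06 (SE; limma, adjusted p = 0.163; DESeq2, adjusted p = 0.0193; edgeR, adjusted p = 0.138). Left out in turn, single libraries gave fold changes of 1.90 to 3.73, none of them called.

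Fbln1 (chromosome 15, 85205949 to 85286535), which encodes fibulin-1, a partner of fibronectin and basement membrane proteins, had 2063 and 577 in the controls and 6253 and 3500 under mVEGF-C. The groups did not overlap, and the log2 fold change was 2.10 ± 0.90 (SE; limma, adjusted p = 0.265). Without eGFP 2 it was 1.18. Mfap4 (chromosome 11, 61485431 to 61488900) had 13211 and 4797 in eGFP and 19308 and 17426 in mVEGF-C libraries. Its fold change of 1.20 (SE 0.50; limma, adjusted p = 0.242) was 0.47 without eGFP 2, so that library held most of the difference.

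The other fibulins went other ways. Fbln7 (chromosome 2, 128862981 to 128897034), an adhesive fibulin, had 892 and 1463 in the controls and 846 and 39.0 under mVEGF-C. Only mVEGF-C 2 was far from the rest: the log2 fold change of -2.63 (SE 1.18; limma, adjusted p = 0.305) was -0.43 without that library, and without mVEGF-C 1 it was -4.84 and called (limma, adjusted p = 0.0234; 2 members called in that fit, against 1.96% of all genes). Fbln2, which encodes a fibulin of elastic fibres and basement membranes, had 4904 and 1027 in eGFP and 1705 and 2988 in mVEGF-C libraries, and its groups overlapped, with a fold change of 0.01 (95% interval -1.76 to 1.77). Fbn1 (fibrillin-1), the backbone of microfibrils and of anchoring filaments, had 14956 and 5399 against 5060 and 9308, a fold change of -0.39 (interval -1.56 to 0.79). Emilin1, an elastin-associated glycoprotein of lymphatic anchoring filaments, had 1503 and 362 against 1027 and 1443, a fold change of 0.72 with an interval of -1.40 to 2.84. Efemp1 (fibulin-3) had 4066 and 4477 against 7410 and 1797, so that the mVEGF-C libraries lay on either side of the eGFP pair.

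**Figure D4:**
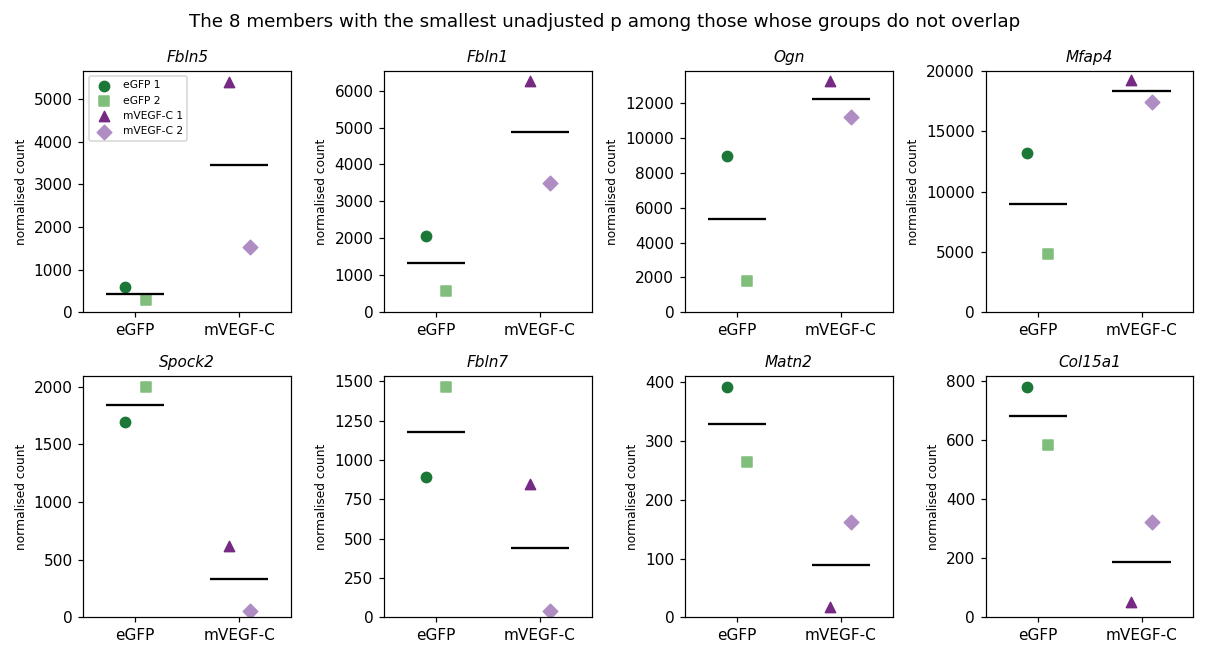
Normalised counts of the 8 matrix genes with the smallest unadjusted p among those whose groups did not overlap; each point is a library, each line a group mean (n = 2), and every axis starts at 0. The mVEGF-C libraries are above for Fbln5, Fbln1, Ogn and Mfap4 and below for Spock2, Fbln7, Matn2 and Col15a1, with wide gaps inside a group in most panels.

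Sequences before the RefSeq start of Fbln5 and Fbln7 are shown because these genes gave the largest differences among elastic fibre proteins. They are the 250 bases before the RefSeq start on GRCm38, 5′ to 3′ on the strand of the gene, at chr12:101819120-101819369 (minus strand) for Fbln5 and chr2:128863682-128863931 (plus strand) for Fbln7. The RefSeq start of Fbln7 lies inside the GENCODE gene model given above, so its window is within that model and not upstream of it. Capitals mark 3 motifs searched on both strands: the CCAAT box, the TATA box spelled TATAAA, and the GC box spelled GGGCGG, so that a match on the other strand is printed as its complement read backwards.
Fbln5: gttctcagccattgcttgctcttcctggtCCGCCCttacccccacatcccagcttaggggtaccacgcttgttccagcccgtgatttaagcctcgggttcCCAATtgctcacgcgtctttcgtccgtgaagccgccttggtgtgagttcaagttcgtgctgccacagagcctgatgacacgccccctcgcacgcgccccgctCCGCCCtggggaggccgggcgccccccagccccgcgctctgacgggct
Fbln7: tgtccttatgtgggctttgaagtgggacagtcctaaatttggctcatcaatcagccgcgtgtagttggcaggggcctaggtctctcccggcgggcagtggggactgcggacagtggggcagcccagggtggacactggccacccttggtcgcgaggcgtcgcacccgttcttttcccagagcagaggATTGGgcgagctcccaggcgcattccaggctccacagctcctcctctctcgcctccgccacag
The window of Fbln5 holds 1 CCAAT and 2 GGGCGG, and that of Fbln7 holds 1 CCAAT on the opposite strand. Of all 32851 RefSeq windows of this length, 33.8% held a CCAAT, 12.4% a TATAAA and 32.7% a GGGCGG. Windows were found for 41 members, 51 windows in all, and 23.5% of these held a CCAAT, 15.7% a TATAAA and 52.9% a GGGCGG. A match describes letters and is not a binding site.

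The small leucine-rich proteoglycans bind collagen fibrils and set their spacing. Ogn (osteoglycin; chromosome 13, 49608046 to 49624501) had 8982 and 1784 in the controls and 13305.5 and 11226 under mVEGF-C. Both mVEGF-C libraries were above both controls, and eGFP 2 alone was low. The log2 fold change of 1.61 (SE 0.63; limma, adjusted p = 0.187) was 0.44 without eGFP 2. Dcn (decorin) had 19852 and 9986 against 24366 and 9307, and Bgn had 31086 and 14945 against 27396 and 19213. In both genes the groups overlapped, with fold changes of 0.10 (interval -0.81 to 1.01) and 0.09 (interval -0.66 to 0.84). Mgp, a small matrix protein of another family, had 9956 and 6722 in eGFP and 6799 and 5637 in mVEGF-C libraries, a fold change of -0.40 (interval -1.62 to 0.82).

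Among fibrillar collagens, eGFP 2 had the lowest level of the 4 libraries for Col1a1, Col1a2, Col3a1 and Col11a1. Col1a1 (chromosome 11, 94936224 to 94953042), the main chain of collagen I, had 17449 and 3011 in the controls and 18981 and 11349 under mVEGF-C. It overlapped between the groups because eGFP 1 lay between the mVEGF-C libraries. The log2 fold change was 1.02 (SE 0.54; limma, adjusted p = 0.454) and -0.25 without eGFP 2. Col3a1 (chromosome 1, 45311538 to 45349706), collagen III of pliable tissue, had 3757 and 766 against 5338 and 2567, a fold change of 1.12 that became -0.02 without eGFP 2. Col1a2, the other chain of collagen I, had 19977 and 10140 against 12507 and 14236, a fold change of -0.09 (interval -1.02 to 0.84). Col5a2, a chain of collagen V that starts fibrils, had 1387 and 725 against 641 and 450, with both mVEGF-C libraries below both controls and a fold change of -0.90 (SE 1.12; limma, adjusted p = 0.870). Col11a1 was low and stood the other way, at 544 and 269 against 1097 and 776 (fold change 1.27, SE 1.15; limma, adjusted p = 0.779).

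The windows before the RefSeq starts of Col3a1, Ogn and Bgn are shown as examples of genes with a low value in eGFP 2, where they stood at 766, 1784 and 14945. They are at chr1:45311288-45311537 (Col3a1), chr13:49607765-49608014 (Ogn) and chrX:73483351-73483600 (Bgn), all on the plus strand of GRCm38 and marked as above.
Col3a1: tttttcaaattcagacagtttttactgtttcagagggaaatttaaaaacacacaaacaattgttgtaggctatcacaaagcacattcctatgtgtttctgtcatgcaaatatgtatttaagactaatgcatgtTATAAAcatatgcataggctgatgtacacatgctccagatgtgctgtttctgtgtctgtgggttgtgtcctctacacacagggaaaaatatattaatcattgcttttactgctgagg
Ogn: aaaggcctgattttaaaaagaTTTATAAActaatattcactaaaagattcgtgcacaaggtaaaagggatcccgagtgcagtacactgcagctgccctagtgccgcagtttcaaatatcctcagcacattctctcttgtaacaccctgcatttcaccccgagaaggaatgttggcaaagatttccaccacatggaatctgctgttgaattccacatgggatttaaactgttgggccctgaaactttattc
Bgn: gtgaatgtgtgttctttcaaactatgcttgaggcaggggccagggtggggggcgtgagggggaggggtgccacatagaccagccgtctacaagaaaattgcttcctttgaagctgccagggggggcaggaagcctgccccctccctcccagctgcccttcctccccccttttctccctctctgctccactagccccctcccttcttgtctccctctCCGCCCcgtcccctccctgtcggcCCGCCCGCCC
Col3a1 holds 1 TATAAA, Ogn holds 2 that overlap on opposite strands, and Bgn holds 3 GGGCGG on the opposite strand, of which the last 2 overlap. None of the 3 windows holds a CCAAT. Tnxb and Fbln1 were also low in eGFP 2, at 1686 and 577. Their windows clear of annotated exons, not shown, hold none of the marked motifs. Another window of Fbln1, which overlaps an annotated exon, holds a GGGCGG on the opposite strand.

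No basement membrane gene was called by limma, and the 95% intervals of the most abundant ones include 0 but are too wide to show equal levels. Lama4, the laminin alpha chain of endothelial basement membranes (chromosome 10, 38965515 to 39110188), had 33695 and 24902 in the controls and 40797 and 25297 under mVEGF-C. The groups overlapped, with a log2 fold change of 0.15 (95% interval -0.49 to 0.79). Hspg2 (perlecan; chromosome 4, 137468769 to 137570630), the heparan sulfate proteoglycan that binds growth factors, had 21577 and 34371 against 40940 and 32809, a fold change of 0.43 (interval -0.20 to 1.06). Lamc1, the gamma chain shared by most laminins, had 17088 and 10538 against 9625 and 11212 (fold change -0.37, interval -1.37 to 0.63). Nid1, a linker of laminin to collagen IV, had 15880 and 7315 against 14376 and 14587 (fold change 0.43, interval -0.55 to 1.40). Its paralogue Nid2 had 6555 and 7411 against 2976 and 4847. Nid2 was below both controls in both mVEGF-C libraries, at a fold change of -0.88 (SE 0.70; limma, adjusted p = 0.730).

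The other laminin chains were less abundant and more variable. Lamb1, a laminin beta chain, had 2654 and 917 in the controls and 3052 and 4382 under mVEGF-C, a log2 fold change of 1.23 (SE 0.89; limma, adjusted p = 0.675). Its counterpart Lamb2 had 6753 and 3404 against 2311 and 6991, with overlapping groups. Lama3, an alpha chain best known from epithelia, had 371 and 254 against 809 and 1128, so the groups did not overlap, and its fold change was 1.63 (SE 1.16; limma, adjusted p = 0.664). For Lama5, the other main alpha chain of endothelium, the mVEGF-C libraries stood at 2388 and 212 and the eGFP libraries at 1070 and 695. The mVEGF-C libraries thus enclosed the controls. Agrn (agrin) had 2585 and 4372 against 629 and 4218, and its fold change of -1.04 was 0.33 without mVEGF-C 1.

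Collagen IV is made of trimers of its chains. Col4a1 (chromosome 8, 11198423 to 11312826) and Col4a2 (chromosome 8, 11312805 to 11449287) are transcribed away from each other on opposite strands, and their gene models share 22 bases at the start, so reads there cannot be assigned without strand. Col4a1 had 6172 and 8178 in the controls and 11019 and 5340 under mVEGF-C, and Col4a2 had 5362 and 2408 against 8205 and 5403. Col4a2 alone had both mVEGF-C libraries above both controls, though narrowly, at a fold change of 0.89 (SE 0.71; limma, adjusted p = 0.730). Col4a3, a chain best known from kidney and lung, had 61.8 and 440 against 125 and 125. Of the multiplexins, which are proteoglycans of basement membranes, Col18a1, the precursor of endostatin, had 2599 and 5243 against 4585 and 1978, with overlapping groups. Col15a1 (chromosome 4, 47208161 to 47313167) had 780 and 585 against 51.3 and 322, below both controls in both mVEGF-C libraries. Its fold change of -2.38 (SE 1.23; limma, adjusted p = 0.430) was -1.06 without mVEGF-C 1.

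Chains of the same protein did not keep a fixed ratio over the libraries. Per kilobase, Col1a1 over Col1a2 was 1.65 and 0.562 in the controls and 2.87 and 1.51 under mVEGF-C. Col4a1 over Col4a2 was 1.02 and 3.01 against 1.19 and 0.876, with eGFP 2 apart from the other libraries. For collagen VI, which forms beaded filaments around cells, Col6a1 over Col6a2 was 2.32 and 1.11 against 0.285 and 0.504. Behind this lay Col6a1 counts of 5811 and 1948 against 1652 and 1189 (fold change -1.26, SE 0.91; limma, adjusted p = 0.673) and Col6a2 counts of 4753 and 3332 against 11015 and 4483 (fold change 0.82, SE 0.69; limma, adjusted p = 0.752). Col6a3 had 2219 and 2451 against 1205 and 3031.

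Collagen VIII, a network collagen of vessel walls, gave the ratio that varied most. Col8a1 over Col8a2 was 4.75 and 43.5 per kilobase in the controls and 5.91 and 1.17 under mVEGF-C. Col8a1 counts were steady, at 4693 and 7700 against 4682 and 5605, and Col8a2 ranged from 102 in eGFP 2 to 2751 in mVEGF-C 2, with 566 in eGFP 1 and 454 in mVEGF-C 1. The log2 fold change of Col8a2 was 2.21 (SE 1.17; limma, adjusted p = 0.452), but its groups overlapped. Lama4 over Lama5 was 29.7 and 33.8 against 16.1 and 113, so Lama4 exceeded Lama5 in all 4 libraries. Nid1 over Nid2 was 1.81 and 0.736 against 3.60 and 2.24, and Lamb1 over Lamb2 was 0.241 and 0.165 against 0.810 and 0.384. With 2 libraries against 2, an exact permutation test cannot give a p below 0.333, and none is given for these ratios.

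**Figure D5:**
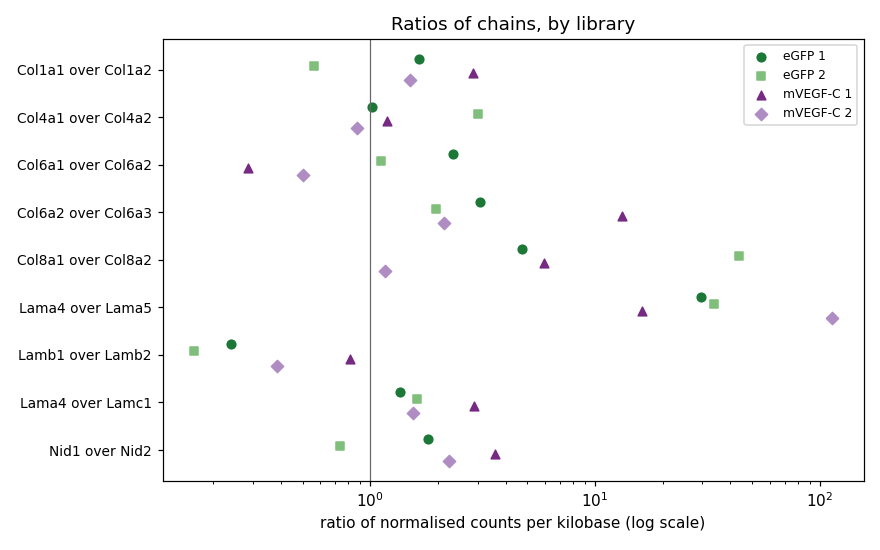
Ratio of normalised counts per kilobase (log axis) for pairs of chains or paralogues, 1 point per library; the line marks equal levels. Lama4 over Lama5 is above 16 in all 4 libraries, and Col8a1 over Col8a2 spans from 1.17 to 43.5.

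Of the collagens that sit on the surface of fibrils, Col12a1 (chromosome 9, 79598991 to 79718831) was the most abundant and the steadiest. It had 23822 and 26349 in the controls and 31576 and 29868 under mVEGF-C. The groups did not overlap, and the log2 fold change was 0.29 ± 0.34 (SE; limma, adjusted p = 0.859). That SE is set by genes of similar level and not by the replicates of Col12a1. Its replicates differed by 0.15 (eGFP) and -0.08 (mVEGF-C) on the log2 scale. The fold change stayed between 0.22 and 0.37 with single libraries left out. Col14a1, its relative, ran from 1054 in eGFP 2 to 5499 in mVEGF-C 2, with 2724 in eGFP 1 and 1366 in mVEGF-C 1. Col16a1 had 634 and 171 against 50.2 and 117 (fold change -2.09, SE 1.27; limma, adjusted p = 0.565), and Col19a1 was near its limit of detection, at 13.4 and 3.21 against 29.9 and 16.7. Col10a1, known from growth cartilage, had 50.1 and 419 against 260 and 138. The transmembrane collagen gene Col23a1 had 1931 and 385 against 1110 and 4188, and Col26a1 had 373 and 661 against 996 and 141. Both overlapped between the groups.

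The matricellular proteins, which regulate cells more than they bear load, included the highest count of all members. Thbs1 (chromosome 2, 118111876 to 118127133) had 26713 and 52841 in the controls and 26801 and 41077 under mVEGF-C. The groups overlapped almost fully, and the log2 fold change was -0.18 (interval -0.77 to 0.42). Its relative Thbs2 had 6941 and 3131 against 7237 and 7472, a fold change of 0.66 (SE 0.67; limma, adjusted p = 0.820) that was 0.08 without eGFP 2. Tnc (tenascin-C), known from remodelling tissue, had 10755 and 16957 against 21280 and 16065, and Tnxb (tenascin-X), which binds collagen fibrils, had 7622 and 1686 against 7946 and 6852. The fold change of Tnxb was 1.04 (SE 0.70) and -0.05 without eGFP 2. Postn (periostin) had 1089 and 2626 against 190 and 1706, a fold change of -1.57 (SE 1.07; limma, adjusted p = 0.644) that was 0.01 without mVEGF-C 1.

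In the SPARC family, Spock2 (chromosome 10, 60106219 to 60135198), a testican proteoglycan, had the largest negative fold change of the 58 members. It had 1691 and 1995 in the controls and 615 and 58.5 under mVEGF-C. Both mVEGF-C libraries were below both controls and differed from each other more than the controls did. Its mean was 337 ± 394 in mVEGF-C and 1843 ± 215 in eGFP (SD, n = 2 each), and the log2 fold change was -3.26 ± 1.15 (SE; limma, adjusted p = 0.121). Without mVEGF-C 1 it was -4.95 and called (limma, adjusted p = 0.0141), and without mVEGF-C 2 it was -1.58. Spock2 is also on the list of blood endothelial markers, of which 10 of 11 had a row and none was at 0. Their summed normalised count, with Spock2 included, was 47315 and 83196 in eGFP and 63318 and 54934 in mVEGF-C libraries. Like Spock2, Selp (3122 and 6120 against 144 and 1969) and Vwf (2308 and 3370 against 1445 and 1706) were below both controls. Plvap was above both, at 6226 and 5250 against 8604 and 16377, and the other markers overlapped. Of the 10 markers, Spock2 included, 4 were thus without overlap, 3 below and 1 above the controls. That is 40%, against 39.2% of all genes tested, 19.8% below and 19.4% above. The part of blood endothelial cells in the value of Spock2 was not tested. Sparc (chromosome 11, 55394500 to 55423183) had 20062 and 9747 against 20792 and 26575, a fold change of 0.75 (SE 0.42; limma, adjusted p = 0.507). The groups did not overlap, but eGFP 1 and mVEGF-C 1 nearly coincided, and without eGFP 2 the fold change was 0.23. Sparcl1 had 1864 and 1628 against 657 and 2687, and the low gene Spock3 had 12.5 and 41.7 against 108 and 41.8.

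Matn2 (matrilin-2; chromosome 15, 34306677 to 34436273), an adaptor of filament networks, had 391 and 264 in the controls and 17.1 and 163 under mVEGF-C. Its log2 fold change was -2.57 (SE 1.28; limma, adjusted p = 0.406) and -0.98 without mVEGF-C 1. For the 4 rows set apart, Col4a3bp had 5556 and 2038 against 5696 and 6915, Mfap1b 664 and 1995 against 3838 and 1636, Mfap3 2799 and 4046 against 6115 and 3188, and Mfap3l 2910 and 12251 against 2349 and 3100. Mfap1b has a near-identical copy, Mfap1a, so its reads may be shared. None of the 4 was called by limma, with adjusted p from 0.628 to 0.930.

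Genes that assemble or bind this matrix gave a similar count of calls. Of 31 listed genes for collagen modification, secretion and crosslinking, 21 had a row and 0 were called by limma, with a median log2 fold change of 0.30. At an unadjusted p under 0.05 there was 1, Loxl2, a lysyl oxidase, which is 4.76% against 11.8% of all genes tested. Loxl2 had 3060 and 8000 in eGFP and 495 and 4681 in mVEGF-C libraries (limma, adjusted p = 0.413). Of 27 listed matrix receptors, 17 had a row and 0 were called by limma, with a median of 0.13 and 2 at an unadjusted p under 0.05, which is 11.8%, as over all genes tested. DESeq2 called 0 of the assembly genes and 1 receptor, Itga5 (DESeq2, adjusted p = 0.0494), against 6.63% of all genes, and edgeR called 0 in both lists. The 2 receptors at an unadjusted p under 0.05 were Itga5, the fibronectin receptor chain, at 1311 and 1702 against 5900 and 9214 (fold change 2.30; limma, adjusted p = 0.118), and Itga9, an integrin of lymphatic valves, at 7154 and 4677 against 18427 and 10795 (fold change 1.29; limma, adjusted p = 0.293). Neither receptor gene overlapped between the groups, as was so for 8 of the 17 receptors, 6 above and 2 below the controls. That is 47.1%, against 39.2% of all genes tested, 19.4% above and 19.8% below.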

How the data were processed

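RNA from sorted meningeal lymphatic endothelial cells was sequenced in 4 libraries, 2 per group, after linear amplification, per the labels' protocols. The submitters' processing notes name FastQC, Trimmomatic, Salmon, DESeq2 and the mm10 build. The authors deposited a signal, normalised read counts, for 9114 genes. Dividing each library by its smallest nonzero value gave whole reads for 100% of values (tolerance 0.001). The annotation release and the strand setting of the quantification were not stated in the sources used here. Read depth is that on the table's genes only, and counts per kilobase may be moved by uneven coverage after amplification.

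As read from the values, rows had been limited by replicate agreement: the SD of log2(reads + 1) within a group was at most 2.00 in eGFP and 3.00 in mVEGF-C. The spread between replicates is therefore understated.

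The comparison was fitted in R 4.3.3 with limma 3.58.1 (eBayes with trend) on log2(normalised count + 1) over 9063 genes (mean normalised count 10 or more), two-sided; all 58 members passed. Fold changes on this scale understate those of low genes. Residual degrees of freedom were 2 and the prior's were infinite, so a gene's own spread did not enter its limma p-value, SE or interval. edgeR 4.0.16 and DESeq2 1.42.0 were run on the recovered reads; edgeR called 146 genes and DESeq2 601. Scripts were tested on simulated data. Group values are mean ± SD over 2 libraries, and no p-value covers variation beyond these libraries. The limma p-values, SEs and intervals use the spread between libraries as estimated from genes of similar level. They can therefore be too small for a gene whose own replicates lie far apart, such as Fbln7.

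Coordinates and exon lengths are from GENCODE vM21 (GRCm38, the assembly of mm10), 1-based, found for 9008 rows (98.8%) and all 58 members. Sequences before RefSeq starts are from RefSeq, GRCm38.p6. Members and gene lists were chosen with earlier results of these data known. The genes named were every member at an unadjusted p under 0.05, the 2 most abundant and the extreme fold changes of each role group, chains of 1 protein and the rows matched by letters alone; the remaining members, and the companion and marker genes, were named after their values were seen.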

Additional observations from a re-analysis of the deposited data

How the results depend on the processing

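Of the 58 members, 0 were called under every alternative tried except DESeq2, which called 1, and except without mVEGF-C 1, where limma called 2, so that leaving out single libraries gave 0 to 2. Over all genes tested, 194 were called by limma, 41 without the mean-variance trend, 601 by DESeq2 and 5 to 292 with single libraries left out, the fewest without eGFP 2. In those fits the lone library of a group is assumed to vary like the others. With the replicate number as a block 0 members and 203 genes were called; same-numbered libraries did not deviate together (r = 0.00013 across genes), so the numbers were not taken as pairs. The reads on the members, 1.45% in eGFP and 1.56% in mVEGF-C, were 1.88% and 2.04% with the mitochondrial rows left out of the total and 0.595% and 0.661% per kilobase. Over all genes the median log2 fold change was -0.10 with libraries scaled to one total.

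The fold change had the same sign under every alternative for 31 of 58 members. Other settings gave the opposite sign for 6: -0.22 for Col10a1 with edgeR, -0.24 for Col10a1 with DESeq2, 0.15 for Col26a1 with edgeR, 0.14 for Col26a1 with DESeq2, -0.032 for Dcn with quantile normalization, 0.12 for Efemp1 with edgeR, 0.11 for Efemp1 with DESeq2, -0.059 for Fbln2 with quantile normalization, -0.076 for Fbln2 with libraries scaled to one total, -0.31 for Fbln2 with edgeR, -0.34 for Fbln2 with DESeq2, 0.57 for Lama5 with edgeR and 0.56 for Lama5 with DESeq2. With single libraries left out, the sign was not kept for 27 members, whose log2 fold changes ranged from -2.42 to 0.33 for Agrn, -0.44 to 0.62 for Bgn, -1.14 to 1.90 for Col10a1, -0.31 to 1.70 for Col14a1, -0.90 to 0.31 for Col18a1, -0.25 to 2.28 for Col1a1, -0.58 to 0.40 for Col1a2, -1.81 to 1.00 for Col26a1, -0.021 to 2.27 for Col3a1, -0.41 to 0.63 for Col4a1, -1.81 to 1.01 for Col4a3, -0.95 to 0.38 for Col6a3, -0.59 to 0.13 for Col8a1, -0.60 to 0.79 for Dcn, -1.25 to 0.80 for Efemp1, -0.30 to 1.75 for Emilin1, -1.12 to 1.13 for Fbln2, -1.12 to 0.35 for Fbn1, -0.20 to 0.49 for Lama4, -2.02 to 1.47 for Lama5, -1.05 to 0.54 for Lamb2, -0.078 to 0.86 for Mfap3, -0.13 to 0.99 for Nid1, -3.15 to 0.012 for Postn, -1.41 to 0.62 for Sparcl1, -0.67 to 0.31 for Thbs1 and -0.047 to 2.13 for Tnxb; without eGFP 2 this held for 14 members and without mVEGF-C 1 for 14. The cause was not tested. With 2 libraries per group, most intervals of the members span more than 2 on the log2 scale, which limits what could be detected. Low counts such as those of Col19a1 and Spock3 limit these further.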
